A study of Mus musculus with 9 samples.

Results

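The genes described here are 43 mouse genes that encode glycoproteins of the extracellular matrix, its proteoglycans and the enzymes that crosslink it. They were taken by gene symbol from the deposited count table, which lists 55487 mouse genes, and all 43 were found there. They were sorted by role into 5 groups: adhesive and matricellular glycoproteins (14 genes), proteoglycans and hyaluronan genes (6), elastic fibre and microfibril genes (11), crosslinking and lysyl hydroxylation enzymes (7) and basement membrane genes (5).

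PT-22, the line sequenced, comes from mouse kidney proximal tubule and carried Pax8 in the inducible vector pTRIPZ. All 9 libraries shared the genotype Pax2-/-, Pax8fl/fl, Rosa-CreERT2, so the day 0 controls also lacked Pax2 by label. There were 3 libraries each from untreated confluent cells at day 0, from cells at day 6 after 1 uM 4-hydroxytamoxifen, which activates CreERT2, and from cells at day 12 after 1 ug/ml doxycycline was then given every 2 d for 6 d. The cells grew in DMEM with 3% fetal bovine serum, and the labels give the time on 4-hydroxytamoxifen as 2 days in one place and the depletion as 6 d in another. Every library came from this 1 line, and the labels do not say whether the 3 libraries of a group were separate cultures, so the p-values rest on a spread between libraries that may be only technical. No untreated cells at the later days were analysed here, so the effects of time, of either drug and of PAX8 cannot be told apart.

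Pax8, the targeted gene, was no lower after the drug that should delete it. In CPM (each gene's counts scaled to a common library size), its 3 day 0 libraries read 292, 289 and 292, the day 6 libraries 399, 405 and 411, and the day 12 libraries 496, 503 and 487. Pax2 counts were also present, at 31.9 ± 2.4, 46.9 ± 3.2 and 52.3 ± 3.2 CPM on days 0, 6 and 12 (SD, n = 3). These counts cover each whole gene, and whether the deleted or floxed exons were present in the RNA was not measured. The comparisons are therefore named by day.

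The extracellular matrix is built from secreted glycoproteins that bind integrins and collagens, from proteoglycans whose glycosaminoglycan chains hold water and growth factors, and from elastic fibres assembled on a scaffold of microfibrils. Lysyl oxidases and lysyl hydroxylases modify lysines of collagen and elastin, which is how the fibres are crosslinked. In the kidney, the tubule rests on a basement membrane that holds nidogens, perlecan and agrin, while fibronectin, periostin and tenascin-C are known for their increase in injured and fibrotic tissue.

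Promoters are shown for the members with the largest rises and falls from day 0 to day 6 among those that had a promoter entry and a mean of at least 5 CPM in the higher group, which leaves out Thbs2: Postn and Fbln2, which rose, and Tnc and Tgfbi, which fell. The same cutoff left out Dcn (4.92 CPM at day 0), which fell by more than Tnc, and Spon1 (1.76 CPM), which fell by more than Tgfbi. Mgp, Lox, Bgn and Spon2 rose by more than Fbln2 and are not shown either. The windows are from RefSeq (GRCm38.p6), run 5′ to 3′ on the gene's strand from 250 bases before the start site to 50 bases from it on, and entries were found for 25 of the 43 members. Capitals mark matches on either strand to any of 7 motifs searched: AP-1 (TGACTCA), TEAD (CATTCC), kappa-B, SMAD (CAGACA), E-box (CACCTG), the TATA box (TATAAA) and a paired-domain string (GCGTGAC). Postn and Tnc each have a further entry, which is not printed. For both genes the printed entry is the one with more motif matches. The Postn window printed is chr3:54360857-54361156 (plus strand), the Fbln2 window chr6:91212514-91212813 (plus strand), the Tnc window chr4:64046887-64047186 (minus strand) and the Tgfbi window chr13:56609336-56609635 (plus strand).
Postn: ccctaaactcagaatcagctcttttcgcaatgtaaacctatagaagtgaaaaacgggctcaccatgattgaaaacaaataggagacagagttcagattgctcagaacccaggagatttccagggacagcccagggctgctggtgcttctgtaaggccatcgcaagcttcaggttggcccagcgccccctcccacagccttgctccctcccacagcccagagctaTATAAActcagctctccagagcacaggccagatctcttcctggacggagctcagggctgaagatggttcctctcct
Fbln2: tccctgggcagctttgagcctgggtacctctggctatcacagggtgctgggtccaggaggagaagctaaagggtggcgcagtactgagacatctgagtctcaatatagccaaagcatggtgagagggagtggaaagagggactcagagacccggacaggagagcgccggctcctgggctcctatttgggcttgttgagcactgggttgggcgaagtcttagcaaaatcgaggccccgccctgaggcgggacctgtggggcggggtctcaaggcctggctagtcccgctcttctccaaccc
Tnc: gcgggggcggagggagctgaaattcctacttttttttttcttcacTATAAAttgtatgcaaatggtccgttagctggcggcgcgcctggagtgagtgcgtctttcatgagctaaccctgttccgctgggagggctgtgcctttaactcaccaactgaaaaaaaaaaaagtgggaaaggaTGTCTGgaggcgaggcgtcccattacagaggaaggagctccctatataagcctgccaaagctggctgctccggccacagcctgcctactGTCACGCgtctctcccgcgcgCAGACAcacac
Tgfbi: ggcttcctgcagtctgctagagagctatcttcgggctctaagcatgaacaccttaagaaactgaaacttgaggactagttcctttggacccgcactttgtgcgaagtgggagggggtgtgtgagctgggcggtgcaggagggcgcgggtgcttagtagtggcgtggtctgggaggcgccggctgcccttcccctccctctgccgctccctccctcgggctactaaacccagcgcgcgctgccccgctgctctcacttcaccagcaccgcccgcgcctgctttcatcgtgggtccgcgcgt
The printed Postn window held TATAAA 26 bases before the start site, and the other Postn entry (chr3:54359017-54359316) held none of the motifs. The printed Tnc window held TATAAA at 205 bases before it, a SMAD match at 71 bases before it, and a paired-domain and a SMAD match after it. The same window also held tatataag nearer the start site, which is not an exact match to TATAAA and so is not marked. The other Tnc entry (chr4:64046966-64047265), which overlaps the printed one, held TATAAA at 126 bases before its start and a SMAD match 8 bases after it, and no paired-domain match. Which start the cells used was not measured. The Fbln2 and Tgfbi windows held none of the 7 motifs. The 25 members have 34 windows. TATAAA was in 13.6% of the 32851 windows of all genes and in 6 of these 34, and CAGACA in 21% and in 11 of 34. GCGTGAC was in 2.09% of all windows and in 1 of 34, the printed Tnc window. The AP-1 motif was in 5.2% of all windows and in 1 of 34, TEAD in 14.7% and in 3 of 34, the E-box in 20.2% and in 3 of 34, and kappa-B in 1.63% and in 0 of 34. A match is a description of the letters, and no binding was measured.

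The libraries held between 56398623 and 86767334 counts, and 21213 to 22139 genes had at least 1 count. The share of counts from mitochondrial genes was 6.66% to 6.94% at day 0, 7.04% to 7.18% at day 6, and 2.43%, 3.96% and 2.1% at day 12. Of 14 proximal tubule markers, 3 (Slc34a1, Slc5a12 and Slc22a6) were at 0 counts in every library and 6 were under 0.1 CPM at each day. Their summed CPM was 2302 ± 70 before treatment, 775 ± 22 on day 6 and 1081 ± 44 on day 12 (SD, n = 3). Of the 7 tested, 5 fell by day 6, where 31.3% of all genes tested did, and 2 rose, where 33.4% did. Those that fell include Cdh6 (947 to 242 CPM), Cdh16 (831 to 122) and Lrp2 (391 to 58.7), which made up most of the sum. The 2 that rose were Aqp1 (119 to 324 CPM) and Anpep (9.99 to 26.4). The summed level of 12 fibroblast and pericyte markers was 31.7 ± 0.63 CPM before treatment, 92 ± 2.4 on day 6 and 89.5 ± 6.5 on day 12, so it moved with the members that rose, and its part in the results was not tested. Twist2 made up most of this sum, at 18.7, 66.5 and 69.1 CPM. Of these 12, 6 of the 7 tested rose from day 0 to day 6, where 33.4% of all genes tested did. Those that rose include Pdgfrb (0.0762 to 2.45 CPM), Col3a1 and Col1a2, each under 0.143 CPM, the cutoff for testing, in at least 2 day 0 libraries. They were tested only because of the later groups, so their rises are weak evidence about the list. Col1a1 (3.12 and 3.62 CPM) did not pass the test, Thy1, Meg3 and Tcf21 were at 0 counts in every library and Pdgfra stayed under 0.1 CPM. In bulk RNA, a change in the number of cells of a type and a change in RNA per cell cannot be told apart.

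Per transcript length, fibronectin and SPARC were the most abundant of these mRNAs. In TPM, which divides counts by transcript length and scales each library to the same total, Sparc was at 475 ± 9.8 and Fn1 at 473 ± 22 at day 0, which did not differ beyond their spread, followed by Tnc at 180.3, Agrn at 164, Npnt at 150.3, Loxl2 at 109 and Efemp2 at 108. At day 6 the order was Fn1 at 1385 TPM, Sparc at 525, Thbs1 at 381 and Ecm1 at 172. At day 12 it was Fn1 at 873 TPM, Sparc at 621, Ecm1 at 302 and Thbs1 at 288. Fn1 alone was 23.3% ± 0.72 of the summed TPM of the 43 genes before treatment, 41.7% ± 2.1 on day 6 and 28% ± 2 on day 12 (SD, n = 3). At the other end, 10 members were under 0.1 TPM at each day.

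Summed over the 43 genes, the level was 2031 ± 33 TPM before treatment, 3313 ± 178 on day 6 and 3110.2 ± 205 on day 12. The adhesive group made up most of it, at 1298 ± 28, 2639 ± 161 and 2319.5 ± 167 TPM. The elastic fibre group went from 159 ± 1.1 to 257 ± 2.3 and 310.2 ± 7.9 TPM. The basement membrane group was at 379 ± 9.3, 252 ± 17 and 269 ± 25 TPM and the enzymes at 189 ± 3.2, 161 ± 3 and 203 ± 9.5 TPM. The proteoglycan and hyaluronan group was at 6.53 ± 0.32, 3.5 ± 0.042 and 8.49 ± 0.39 TPM. That sum leaves out the proteoglycans Agrn and Hspg2, at 164 and 65.1 TPM on day 0, which are in the basement membrane group. On the TPM scale the median gene itself lay 0.16 (log2, with 1 TPM added) above its day 6 level at day 12, so sums at day 12 carry that shift. On the CPM scale, where long transcripts weigh more, the sum over the 43 genes was 7430.1 ± 214, then 12805 ± 902, then 8854 ± 680.02. There the enzymes stood lower on day 12 than on day 0 (468 ± 10 against 594 ± 9.8 CPM), the opposite of the TPM order. The proteoglycan and hyaluronan group was at 19.7 ± 0.25 CPM on day 12 against 21.9 ± 2.4 on day 0. Its libraries overlapped, at 19.4, 22.5 and 24 CPM on day 0 and 19.4, 19.8 and 19.9 CPM on day 12, so the TPM rise was not seen on this scale.

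**Figure D1:**
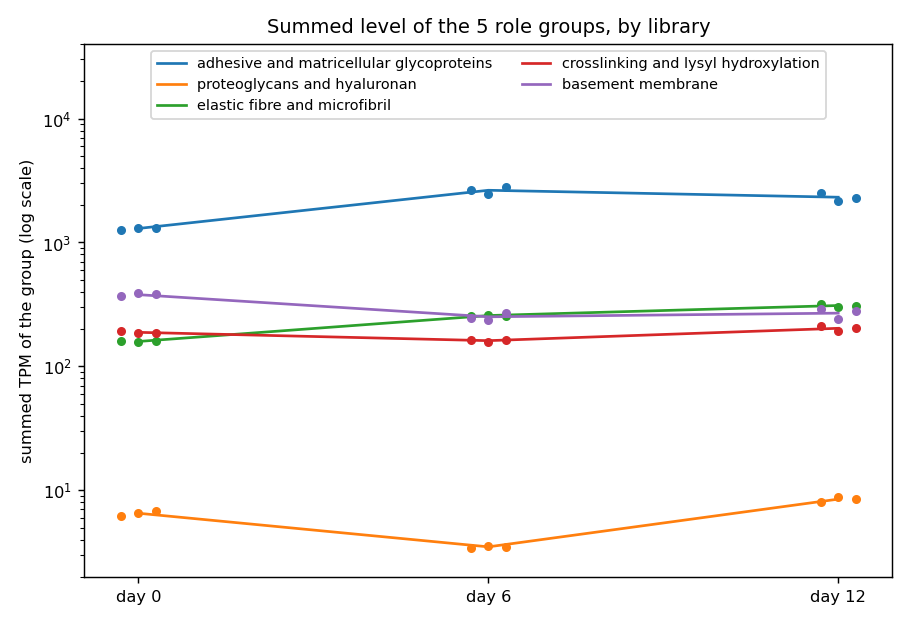
Summed TPM of the genes of each role group in each of the 9 libraries, on a log axis. The adhesive group is the highest at every day, and the basement membrane group is lower at day 6 (252 ± 17 TPM) than at day 0 (379 ± 9.3 TPM).

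The first comparison, day 6 against day 0, asks which of these genes differed after 4-hydroxytamoxifen. Of the 43 members, 33 passed the filter on low counts, and 6 of these (Thbs2, Mgp, Bgn, Lox, Nid1 and Efemp1) were under the filter's cutoff of 0.143 CPM in at least 2 day 0 libraries and passed only through the later groups. At an adjusted p under 0.05 (edgeR's quasi-likelihood test, Benjamini-Hochberg over 16353 genes), 20 members were higher at day 6, where 33.4% of all genes tested were, and 10 were lower, where 31.3% were. In either direction, all but 3 of the 33 were called, against 64.7% of all genes. By at least 2-fold, 15 were higher, against 9.63% of all genes, and 5 were lower, against 4.68%. The 20 and the 15 both include Mgp, Thbs2, Bgn, Lox and Nid1, for which a rise was favoured by the way they passed the filter. The median log2 fold change was 0.71 over the tested members and 0.022 over all genes. The 0.71 includes the 6 members that passed only through the later groups. Each of them lay above it, which raised the median. The remaining 3, Hspg2, Efemp1 and Efemp2, did not pass the test.

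The second comparison, day 12 against day 6, asks what differed after doxycycline. Of the 33 tested members, 10 were higher, against 22.8% of all genes, and 7 were lower, against 22.8%, with 45.6% of all genes called in either direction. By at least 2-fold, 3 were higher (2.26% of all genes) and 1 was lower (1.98%), and the median was 0.02 beside 0.0084 over all genes. With limma on log2(TPM + 1) the split was 16 higher and 3 lower. Day 12 against day 0 gave 20 members higher, against 34.6% of all genes, and 9 lower, against 31.7%, with 66.3% of all genes called in either direction. By at least 2-fold, 14 were higher (9.41% of all genes) and 3 lower (4.21%), and the median was 0.77 beside 0.025. The 20 and the 14 again include Mgp, Thbs2, Bgn, Lox and Nid1, which passed the filter only through the later groups. The median of 0.77 includes these and Efemp1, which passed the same way. Each of them lay above it, which raised that median. The comparisons share libraries, so a member that stands out at day 6 moves in opposite directions in the first and second.

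**Figure D2:**
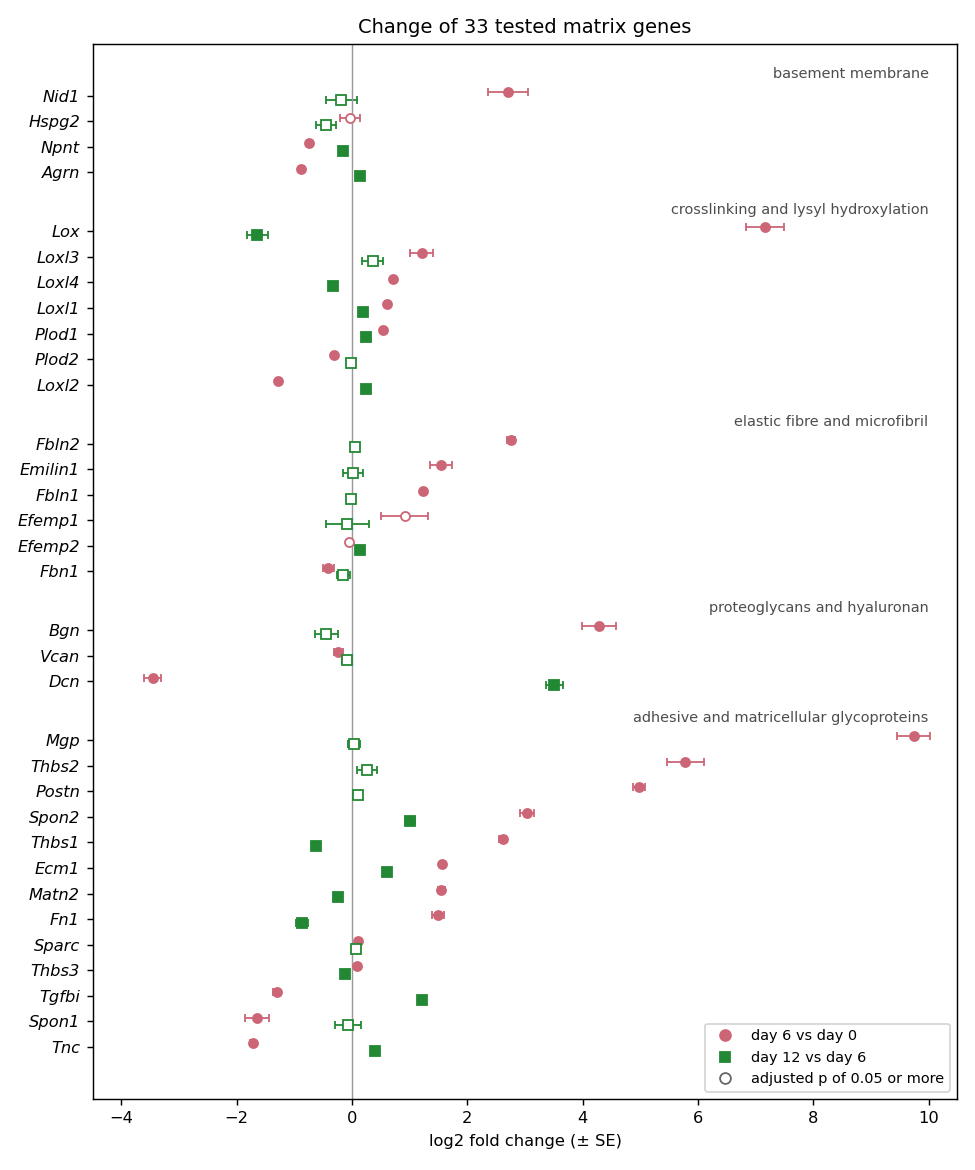
Log2 fold change (± SE) of the 33 tested members by role group, with circles for day 6 against day 0, squares for day 12 against day 6 and open symbols for an adjusted p of 0.05 or more. At day 6, 20 members are higher and 10 lower, with Dcn falling by 3.46 and then rising by 3.51; the day 6 points of Mgp, Thbs2, Bgn, Lox, Nid1 and Efemp1 are fitted against low day 0 counts and depend on the fit's prior count.

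Among the adhesive and matricellular glycoproteins, 10 of 13 tested members rose by day 6, where 33.4% of all genes did, and 3 fell, where 31.3% did. The 10 include Mgp and Thbs2, which passed the filter only through the later groups. Fn1 (chromosome 1, 71585520 to 71653200, minus strand, GRCm38) encodes fibronectin, which links integrins to collagen. It was at 2601, 2764 and 2863 CPM at day 0, 7753, 6935 and 8399 CPM at day 6 and 4763, 3819 and 4033 CPM at day 12. All 3 groups were apart. The rise was 2.81-fold (log2 1.49 ± 0.11 SE, adjusted p = 1.12e-05) and the later fall 1.83-fold (adjusted p = 0.000489), which left day 12 at 1.53 times day 0 (adjusted p = 0.00152). Fn1 has a transcript of 8315 bases, and the 1027 genes with transcripts over 7 kb had a median log2 change of -0.19 from day 6 to day 12, where those of 2 to 4 kb had 0.03; the part of this in the later fall was not tested.

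Thbs1 (chromosome 2, 118111876 to 118127133, plus strand) encodes thrombospondin-1, a matricellular protein known to activate latent TGF-beta. It was at 242, 252 and 283 CPM at day 0, 1539, 1574 and 1632 CPM at day 6 and 1081, 989.6 and 1016 CPM at day 12. The groups did not overlap, and the rise was 6.11-fold (log2 2.61 ± 0.055, adjusted p = 4.33e-14) and the fall 1.54-fold (adjusted p = 5.89e-07). Thbs2, its close relative, had 6 counts over the day 0 libraries, 325 at day 6 and 408 at day 12. That is a ratio of 58.4 at day 6 (95% exact interval 26.6 to 160.4, counting error only), and day 12 did not pass against day 6 (log2 0.26, adjusted p = 0.226). Thbs4 had 0 counts at day 0, 25 at day 6 and 6 at day 12. Of the 25, library B held 17. Against a floor of 3 counts over the day 0 group that is at least 8.99-fold higher at day 6, but at least 4.57-fold without library B, and the exact 95% lower limits are 6.78 and 2.93. Thbs3 was nearly level: its CPM values were 60.8, 62.7 and 63.3, then 65, 63.8 and 69.7, then 61, 61.4 and 59.5. Its log2 changes of 0.09 (adjusted p = 0.0385) and -0.12 (adjusted p = 0.00767) were small, the first lost its call in most alternatives, and the second was 0.12 with the opposite sign on the TPM scale. Thbs3 shares 318 exon bases with Mtx1 on the other strand. In the family's summed TPM, Thbs1 went from 64.7% ± 2.7 to 91.4% ± 0.48 and then 88% ± 1.2, and Thbs3 from 35.3% to 8.51% and 11.8%.

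Postn (chromosome 3, 54361109 to 54391037, plus strand), the promoter of which is printed above, encodes periostin, a matricellular protein that binds integrins and collagen. Its level was 2.74, 2.65 and 2.96 CPM at day 0, 95.8, 90.3 and 78 CPM at day 6 and 96.4, 97.6 and 88.6 CPM at day 12. Every later library was far above every day 0 library, and the rise was 31.6-fold (log2 4.98 ± 0.1, adjusted p = 2.46e-11). The day 6 and day 12 values overlapped (log2 0.1 ± 0.069, adjusted p = 0.289). Mgp, matrix Gla protein, an inhibitor of calcification, had 1 count over the day 0 libraries, 1100 at day 6 and 1188 at day 12. Its ratio at day 6 was 1186 (95% exact interval 213 to 46905), and day 12 did not pass against day 6 (log2 0.03, adjusted p = 0.853).

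Ecm1 and Spon2 rose in both steps. Ecm1, extracellular matrix protein 1, which binds perlecan and fibulin-1, was at 46.6, 46.8 and 50.8 CPM, then 139.8, 143 and 142 CPM, then 218, 225 and 199 CPM. The groups did not overlap, and the log2 changes were 1.56 ± 0.043 (adjusted p = 1.69e-16) and 0.6 ± 0.04 (adjusted p = 1.14e-09). Spon2, a secreted F-spondin family protein, was at 0.621, 0.639 and 0.534 CPM, then 5.11, 5.13 and 4.39 CPM, then 9.51, 10.2 and 9.71 CPM. It was 8.15-fold higher at day 6 (adjusted p = 1.92e-15) and a further 2.0-fold higher at day 12 (adjusted p = 4.54e-09), with no overlap. Matn2, matrilin-2, a filament-forming adaptor protein, rose 2.93-fold at day 6 (adjusted p = 2.34e-15) and fell by 0.24 on the log2 scale at day 12 (adjusted p = 0.00161), a fall that was 0.0 on the TPM scale. Sparc, which binds collagen, was nearly flat at 681, 657 and 662 CPM, then 726, 709 and 707 CPM, then 742, 749 and 744 CPM, a rise of 0.1 at day 6 on the log2 scale (adjusted p = 0.00492).

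The 3 members of this group that fell were Tnc, Spon1 and Tgfbi. Tnc (chromosome 4, 63959785 to 64047015, minus strand) encodes tenascin-C, which modulates adhesion. It was at 935, 1001 and 921 CPM at day 0, 293, 276 and 300.2 CPM at day 6 and 405, 363 and 372 CPM at day 12. The groups were apart, with a 3.29-fold fall (log2 -1.72 ± 0.045, adjusted p = 1.5e-15) and a 1.31-fold rise (adjusted p = 1.95e-06), and day 12 remained 2.51-fold below day 0 (adjusted p = 6.06e-14). Tgfbi (chromosome 13, 56609523 to 56639562, plus strand), a TGF-beta-induced adhesion protein, was at 20, 20.2 and 20.7 CPM, then 9.22, 7.24 and 8.12 CPM, then 18.9, 18.9 and 19.4 CPM. It fell 2.48-fold (adjusted p = 1.43e-13) and rose 2.33-fold (adjusted p = 6.16e-12), and day 12 did not pass against day 0 (log2 -0.09, adjusted p = 0.199), which does not show that they were equal. Spon1, F-spondin, was at 1.34, 2 and 1.95 CPM at day 0 and at 0.481 to 0.602 CPM in all 6 later libraries, a fall of 1.65 on the log2 scale at day 6 (adjusted p = 5.04e-07).

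**Figure D3:**
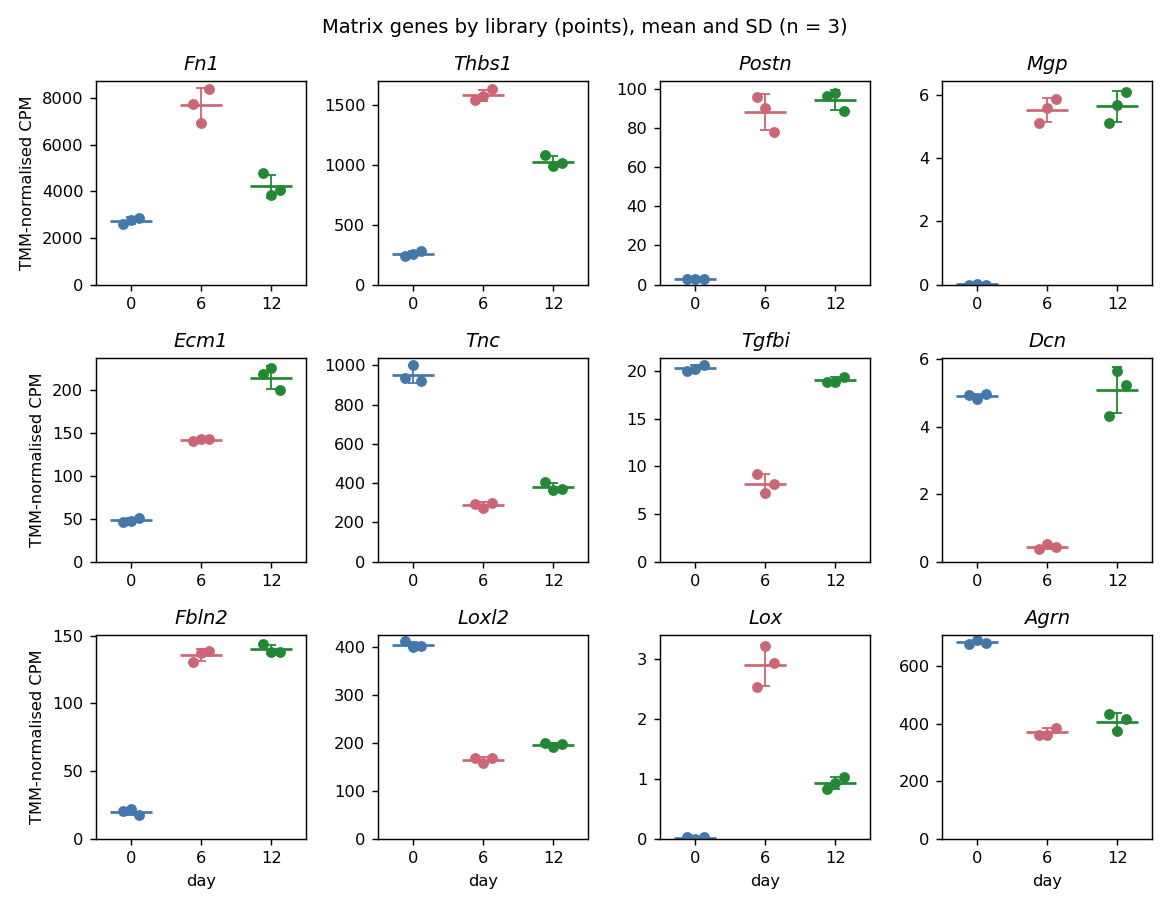
TMM-scaled CPM of 12 members in each library, with the mean and SD of each group of 3. Dcn and Tgfbi are low at day 6 alone, Postn and Mgp are high at both later days, and Ecm1 is higher at each later day.

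Of the 6 proteoglycan and hyaluronan genes, 3 passed the filter. Dcn (chromosome 10, 97479609 to 97518143, plus strand) encodes decorin, a small leucine-rich proteoglycan that binds collagen fibrils and TGF-beta. It was at 4.93, 4.84 and 4.98 CPM at day 0, 0.384, 0.513 and 0.43 CPM at day 6 and 4.33, 5.67 and 5.25 CPM at day 12. The day 6 libraries lay far below all others, while the day 0 and day 12 values overlapped. The fall was 11-fold (log2 -3.46 ± 0.15, adjusted p = 7.7e-15) and the rise 11.4-fold (log2 3.51 ± 0.15, adjusted p = 1.05e-13), and day 12 against day 0 gave a log2 change of 0.05 (adjusted p = 0.719). Its neighbour Lum, lumican, another proteoglycan of the same family that lies 46985 bases further along the chromosome, had 1, 1 and 6 counts over the libraries of day 0, 6 and 12. Bgn, biglycan, also of this family, went the other way: 18 counts over day 0, 334 over day 6 and 261 over day 12, a ratio of 20 at day 6 (95% exact interval 12.5 to 34.2). Day 12 did not pass against day 6 for Bgn (log2 -0.45, adjusted p = 0.0779). Vcan, versican, a large hyaluronan-binding proteoglycan, was at 14.4, 17.6 and 18.8 CPM, then 14.6, 13.6 and 14.6 CPM, then 14, 12.7 and 13.5 CPM. Its day 6 values overlapped those of day 0, and its call (log2 -0.24, adjusted p = 0.0147) was lost without day 0 library B (adjusted p = 0.0594), without day 0 library C (0.0721) and without day 6 library B (0.0519). Has2, a hyaluronan synthase, had 0 counts in all libraries, and Hapln1, a link protein for hyaluronan, had 0, 3 and 0 counts.

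Among the elastic fibre and microfibril genes, 6 of 11 were tested, and 3 rose by day 6 (Fbln2, Fbln1 and Emilin1; 33.4% of all genes rose), 1 fell (Fbn1; 31.3% fell) and Efemp1 and Efemp2 did not pass. Fbln2 (chromosome 6, 91212455 to 91272540, plus strand) encodes fibulin-2, which binds fibronectin and basement membrane proteins. It was at 20.6, 22 and 17.4 CPM at day 0, 130.5, 137 and 139 CPM at day 6 and 144, 138 and 138 CPM at day 12. The later values overlapped each other and lay far above day 0, with a log2 rise of 2.76 ± 0.067 (adjusted p = 1.05e-11) and then 0.05 (adjusted p = 0.509). Fbln1, fibulin-1, was at 71, 68.5 and 71.5 CPM, then 168, 166 and 162 CPM, then 169.6, 168 and 153 CPM. It rose 2.35-fold (adjusted p = 1.59e-17) with no further call at day 12 (log2 -0.02, adjusted p = 0.749), where the TPM scale gave 0.18 (limma, adjusted p = 0.00379). Efemp2, fibulin-4, needed for elastic fibre assembly, was at 107, 102 and 108 CPM, then 102, 104 and 98.6 CPM, then 109, 114 and 112 CPM, and its log2 change at day 12 against day 6 was 0.14 (adjusted p = 0.00117). Of the family's summed TPM, Efemp2 held 68.5% ± 0.64, 41.4% ± 0.52 and 44.1% ± 1.5 on days 0, 6 and 12, and Fbln2 was 4.37% ± 0.92, 17.7% ± 0.72 and 17.5% ± 0.54.

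Emilin1, a microfibril-associated glycoprotein, was at 0.454, 0.463 and 0.678 CPM, then 1.51, 1.43 and 1.72 CPM, then 1.6, 1.43 and 1.69 CPM. It rose by 1.54 ± 0.19 at day 6 on the log2 scale (adjusted p = 4.55e-07), a call that limma on log2(TPM + 1) did not make (adjusted p = 0.0955). Fbn1, fibrillin-1, the main microfibril protein, was at 4.75, 4.81 and 5.12 CPM, then 3.75, 3.26 and 4.06 CPM, then 3.71, 3 and 3.22 CPM. It fell by 0.41 at day 6 (adjusted p = 0.00163), and limma on log2(TPM + 1) did not call it (adjusted p = 0.11). Efemp1, fibulin-3, was at 0.108, 0.144 and 0.159 CPM, then 0.192, 0.27 and 0.31 CPM, then 0.271, 0.308 and 0.133 CPM. It passed the filter only through the later groups, so its day 6 test is of little weight. It did not pass the test at day 6 (log2 0.91 ± 0.41, adjusted p = 0.0605) or at day 12 against day 6 (log2 -0.08, adjusted p = 0.884). Eln, elastin, had 5, 3 and 39 counts over the libraries of day 0, 6 and 12, which is a ratio of 12.2 for day 12 over day 6 (95% exact interval 3.89 to 61.9, counting error only). Of the 39, libraries A, B and C held 9, 22 and 8, a spread that the interval does not cover. Fbn2, Mfap2, Mfap5 and Fbln5, further elastic fibre genes, had at most 7 counts over any group of 3.

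All 7 crosslinking and lysyl hydroxylation enzymes were tested, and 5 rose by day 6, where 33.4% of all genes did, and 2 fell, where 31.3% did. The 5 include Lox, which passed the filter only through the later groups. Lox, lysyl oxidase, the founding member of the crosslinking enzymes, had 4 counts over day 0, 581 over day 6 and 196 over day 12. Its CPM was 0.0239, 0 and 0.0288 at day 0, 2.54, 3.22 and 2.93 at day 6 and 0.827, 0.924 and 1.04 at day 12, with no overlap between groups. The ratio at day 6 was 157 (95% exact interval 60.9 to 577), and the fall from day 6 to day 12 was 1.64 ± 0.18 on the log2 scale (adjusted p = 2.35e-07). Loxl2 (chromosome 14, 69609068 to 69695834, plus strand), a lysyl oxidase that acts on basement membrane collagen IV, went the other way. It was at 412, 400.4 and 403 CPM, then 168, 159 and 169 CPM, then 199, 191 and 198 CPM. The groups did not overlap, with a log2 change of -1.29 ± 0.032 (adjusted p = 6.08e-19) and then 0.25 ± 0.032 (adjusted p = 2.22e-06).

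The other lysyl oxidases also rose by day 6. Loxl1, which acts on elastin, was at 52.5, 47.7 and 51.7 CPM, then 77.9, 77.3 and 77.5 CPM, then 92.2, 85.8 and 87.1 CPM, so it rose by 0.61 (adjusted p = 5.94e-12) and again by 0.19 (adjusted p = 0.000322) on the log2 scale. Loxl4 was at 40.9, 40.4 and 41.7 CPM, then 67.1, 65.9 and 68.6 CPM, then 54.6, 52 and 53.7 CPM, a rise of 0.71 (adjusted p = 6.99e-14) and a fall of 0.33 (adjusted p = 9.79e-08), the latter not called on the TPM scale (limma on log2(TPM + 1), -0.11, adjusted p = 0.0893). Loxl3 was at 1.04, 1.25 and 0.649 CPM and then at 1.82, 2.71 and 2.22 CPM (log2 1.21 ± 0.2, adjusted p = 3.54e-05). It shares 535 exon bases with Htra2 on the other strand, which was at 28 CPM at day 0 and day 6. The family's summed TPM was 148 ± 3 at day 0, lower at day 6 (111 ± 2.4) and 138 ± 7.4 at day 12. Within that sum, Loxl2 made up 73.9% ± 0.63 at day 0, 42.2% ± 0.97 at day 6 and 47.3% ± 0.41 at day 12. Loxl1 went from 14.7% ± 0.51 to 31% ± 0.45 and 32.9% ± 0.38, while Lox itself was 0.813% ± 0.11 at day 6, where it was highest.

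**Figure D4:**
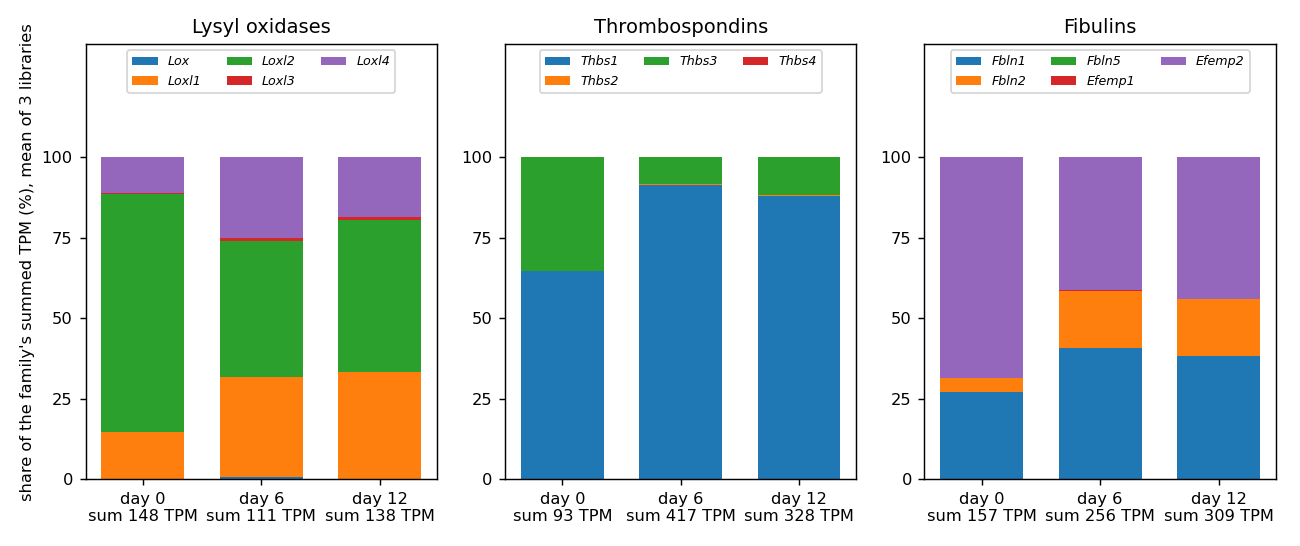
Share of each member in the summed TPM of its family, in percent, by day (means of 3 libraries). Loxl2 goes from 73.9% to 42.2%, Thbs1 from 64.7% to 91.4% and Efemp2 from 68.5% to 41.4% between day 0 and day 6.

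The lysyl hydroxylases, which prepare collagen lysines for crosslinking, were split. Plod1, which acts in the helical part of collagen, was at 56.7, 53.5 and 55.8 CPM, then 80.1, 79.3 and 79.6 CPM, then 95.7, 94.3 and 92.2 CPM, and rose by 0.53 (adjusted p = 4.74e-12) and by 0.24 (adjusted p = 3.03e-06) on the log2 scale. Plod2, which acts on the telopeptides, was at 40.7, 41.3 and 40 CPM, then 35, 32.1 and 31.6 CPM, then 33.5, 32.2 and 31.8 CPM. It fell by 0.31 at day 6 (adjusted p = 2.02e-06), and the later values overlapped (log2 -0.02, adjusted p = 0.79).

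In the basement membrane group, Agrn and Npnt fell by day 6. Agrn (chromosome 4, 156165290 to 156197488, minus strand), agrin, a heparan sulfate proteoglycan, was at 678, 692 and 682 CPM, then 362, 363 and 387 CPM, then 433, 375 and 417 CPM. The fall was 0.88 ± 0.043 on the log2 scale (adjusted p = 6.74e-12). Its later change of 0.14 (adjusted p = 0.0145) was lost without day 6 library A (adjusted p = 0.0671), day 6 library B (0.0515), day 12 library A (0.0722) or day 12 library C (0.0628). Npnt, nephronectin, an integrin ligand of kidney epithelium, was at 462, 466 and 469 CPM, then 279, 269.7 and 286 CPM, then 249, 243 and 262 CPM. It fell by 0.74 ± 0.033 (adjusted p = 1.55e-14) with no overlap, and its log2 change of -0.15 at day 12 (adjusted p = 0.00108) was 0.06 with the opposite sign on the TPM scale.

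Hspg2, perlecan, was at 620.1, 728 and 744 CPM, then 661, 577 and 797 CPM, then 581, 422 and 488 CPM. The groups of day 0 and day 6 overlapped (log2 -0.04, adjusted p = 0.854). Day 12 against day 0 passed (log2 -0.49 ± 0.17, adjusted p = 0.0391), but not when library letters were used as a block (-0.5, adjusted p = 0.0583). It was also lost without day 0 library B (adjusted p = 0.102), day 0 library C (0.107), day 6 library A (0.0625), day 12 library B (0.11) or day 12 library C (0.0985). Its transcript is 14187 bases long, and in the class over 7 kb the median gene deviated from its group mean by 0.053, -0.071 and 0.021 (log2) in day 12 libraries A, B and C. Hspg2 was likewise highest in A and lowest in B; the part of this was not tested. Nid1, nidogen-1, which links laminin to collagen IV, was at 0.0717, 0.128 and 0.159 CPM at day 0 and 0.576, 0.823 and 0.93 CPM at day 6. That is 25 counts against 154, a ratio of 6.64 (95% exact interval 4.34 to 10.6), and no test is given since it passed the filter only through the later groups. Nid2, its relative, had 2, 3 and 5 counts over the 3 groups.

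The ratio of count to TPM follows the mean length of the transcripts counted, and it was compared for the 21 members with at least 100 counts and 1 TPM in every library. None changed by 5% or more with an adjusted p under 0.05 (limma), beside 0.656% of 11121 genes from day 0 to day 6, 0.252% from day 6 to day 12 and 1.36% from day 0 to day 12. At an unadjusted p under 0.05 there were 2, 0 and 4 members. For Fn1, which is known for alternatively spliced extra domains, the apparent length at day 6 was 98.8% ± 0.35 of its day 0 mean, and at day 12 it was 99.3% ± 0.31 (SD, n = 3). This ratio does not resolve single exons.

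A wider list of 99 other matrix genes was measured for context, and 63 of them were tested. By day 6, 42 rose (33.4% of all genes did) and 16 fell (31.3%), with a median log2 change of 0.62, and from day 6 to day 12, 24 rose and 23 fell (22.8% of all genes each). The 42 and the 0.62 include P4ha3 and Omd, under the testing cutoff of 0.143 CPM in every day 0 library. They also include Adamts2 and Prelp, each under that cutoff in at least 1 day 0 library. All of these were tested only because of the later groups, so their rises are weak evidence about the list. Ltbp2, a latent TGF-beta binding protein, averaged 0.196 ± 0.067, 91.5 ± 2.8 and 54.9 ± 4 CPM on days 0, 6 and 12. Fmod, fibromodulin, a relative of decorin, was at 0.885 ± 0.16, 55 ± 1.2 and 44 ± 3.6 CPM. Ogn, osteoglycin, rose in both steps, with 0.473 ± 0.085, 25.2 ± 1.3 and 57.9 ± 2.2 CPM. P4ha1, a collagen prolyl hydroxylase, was at 188 ± 5.3, 90.1 ± 3.4 and 175 ± 8.6 CPM, a fall of 1.06 (adjusted p = 5.11e-16) and a rise of 0.96 (adjusted p = 5.15e-14) on the log2 scale. Hmcn1, hemicentin-1, with a transcript of 17908 bases, was at 0.573 ± 0.29, 31.5 ± 6.2 and 9.98 ± 3.1 CPM. Fras1, a basement membrane protein with a transcript of 15848 bases, was at 57.3 ± 4.8, 207 ± 22 and 102 ± 18 CPM. Colgalt2, a collagen galactosyltransferase, was at 1.0, 0.107 and 0.818 CPM, and Hmmr, a hyaluronan receptor that also acts in mitosis, at 84.6, 31 and 39.6 CPM, both falling by day 6 (adjusted p = 2.89e-08 and 5.5e-16). P4ha3, another prolyl hydroxylase subunit, was at 0.0216, 1.6 and 2.03 CPM. From day 6 to day 12 Pcolce2, an enhancer of procollagen processing, rose from 2.77 to 5.21 CPM (adjusted p = 9.45e-07), and Cspg4, a membrane proteoglycan, fell from 16 to 9.48 CPM (adjusted p = 4.38e-08). Hmcn1 and Fras1 fell from day 6 to day 12 (adjusted p = 0.00317 and 0.00164). Of the other tested genes on this list with transcripts over 7 kb, Tnxb (adjusted p = 0.00252) and Cspg4 also fell. Hmcn2, with a transcript of 15646 bases, did not pass (log2 0.01, adjusted p = 0.973), and Cemip and Adamts2 rose (adjusted p = 0.000352 and 8.51e-07). The part of transcript length was not tested.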

How the data were processed

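RNA from 9 libraries of 1 cell line was sequenced as polyA RNA. The authors deposited gene-level counts and TPM with 2 decimals. The genome build GRCm38 and the tools RSEM 1.3.3, STAR 2.7.8a, cutadapt 2.3 and FastQC 0.11.8 are named per the submitters' processing notes. Tool roles, annotation, strand setting and any rounding of estimated counts: not given in the sources used here. All value columns were mapped to samples (0 unmapped). The 4 transgene entries (0.00204% to 0.00284% of counts) were left out.

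Counts were tested with edgeR 4.0.16 (R 4.3.3): filterByExpr, TMM factors and a quasi-likelihood fit over all 9 libraries, with Benjamini-Hochberg adjustment over 16353 genes. CPM values are scaled by TMM. Alternatives were other scaling factors and filters, DESeq2 1.42.0, limma 3.58.1 on TPM with 1 or 0.1 added, mitochondrial genes left out, only the 6 libraries compared, a replicate block, and each library left out. Intervals on count ratios are exact binomial at 95% and cover counting error only. Positions and overlaps come from GENCODE M21 (GRCm38), which matched 55227 of 55487 identifiers. Scripts were tested on simulated data.

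The members and lists were chosen with earlier results of these data known. Named genes were, per role group and comparison, up to 2 members in each direction with the largest called change and a mean of at least 1 CPM, the group's most abundant member, and members at or under 3 counts in a group; others are given to account for every member. Of the other matrix genes, the 3 with the largest called change in each direction were named for the first 2 comparisons. Protein sequences were not used here.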

Additional observations from a re-analysis of the deposited data

How the results depend on the processing

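With limma on log2(TPM + 1), the median of all genes lay at 0.16 for day 12 against day 6 and 0.19 for day 12 against day 0 (0.21 and 0.25 with 0.1 added), and the counts that moved by over 1.5 times did so on this scale. For day 12 against day 6 with 1 TPM added, 16 members were higher and 3 lower, 0 of them lower by 2-fold; 8 other matrix genes, and 879 of all genes, were lower and 8016 higher. With 0.1 added, 3 members, 8 other matrix genes and 872 genes were lower and 7940 higher. For day 12 against day 0, 5 members were lower with either amount added, 3 other matrix genes were lower with either, and 1938 (1 added) or 1955 (0.1 added) of all genes were lower, with 8507 higher with 0.1 added. With 1 added, 9 members were higher by 2-fold at day 6 against day 0, and at day 12 against day 0 there were 9 higher and 1 lower by 2-fold. The other settings, each library left out included, kept all these counts within 1.5 times. Log2 changes of the opposite sign with 1 and 0.1 TPM added were, for day 12 against day 6, Spon1 0.01 and 0.06, Thbs3 0.12 and 0.12, Vcan 0.07 and 0.1, Fbn1 0.03 and 0.06, Fbln1 0.18 and 0.18, Efemp1 0.02 and 0.05, Emilin1 -0.1 and -0.2, Plod2 0.15 and 0.16, and Npnt 0.06 and 0.06. For day 12 against day 0 they were Thbs3 0.23 and 0.24 and Tgfbi 0.16 and 0.17, and for day 6 against day 0 Hspg2 0.01 and 0.01. Upper-quartile factors gave Fbln1 0.02 and Plod2 0.02 at day 12 against day 6. With a library left out, values near 0 crossed it: Hspg2 -0.17 to 0.05 (day 6 against day 0), Dcn -0.04 to 0.15 (day 12 against day 0), and for day 12 against day 6 Mgp -0.03 to 0.1, Fbln1 -0.04 to 0.03, Efemp1 -0.31 to 0.18, Emilin1 -0.03 to 0.1, Plod2 -0.05 to 0.03 and Nid1 -0.37 to 0.0. The cause was not tested. Libraries of the same letter deviated from their group means with correlations of -0.093 to 0.125, and those of other letters with -0.148 to 0.136. No shift shared by letter was visible, but with 3 libraries per group this cannot exclude that libraries of a letter were handled together. With the replicate block 20 members were higher and 10 lower at day 6, and Hspg2 at day 12 against day 0 was the only member call lost. Members with under 10 counts in a group are limited by counting error.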
